A study of Mus musculus with 12 samples.

Results

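Mephedrone is a synthetic cathinone, a stimulant that raises extracellular dopamine and serotonin, and is often taken with alcohol. The comparison described here asks which transcripts of the anterior striatum differed when mephedrone was added to ethanol. Its members are the 6 of 12 arrays whose source label names ethanol, 3 with mephedrone and ethanol together (the combination) and 3 with ethanol. They were chosen by that label and not by any measured value. All arrays came from the anterior striata of male adolescents of Swiss CD-1, an outbred mouse stock, which had gone through 10 days of conditioned place preference, a test of reward. Each drug was given 15 minutes ahead of the time in its paired compartment. The other 6 arrays, 3 with mephedrone and 3 with saline, entered the same fit and gave a second comparison, mephedrone against saline, which shares no array with the first. The labels give no dose, no hour of collection and no array batch, and do not say whether each array holds a separate animal, so the spread behind the p-values is that between the arrays at hand and could be technical.

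The striatum receives dense dopamine input and consists mostly of projection neurons that carry D1 or D2 dopamine receptors. Cells of the striatum, like most cells, run a circadian clock: the activators BMAL1 (gene Arntl) and CLOCK bind E-box sequences and switch on their own repressors (Per, Cry, Bhlhe and Ciart genes), while the nuclear receptors Nr1d1 and Nr1d2 repress Arntl. PAR bZIP factors such as Dbp bind D-box sequences and carry the rhythm to other genes. Neurons that fire also switch on immediate early genes within minutes, through calcium, cyclic AMP and the kinase ERK. Phosphatases and Sprouty proteins induced by ERK then damp it.

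Promoters of 4 genes that the results turn on are shown because each holds a match to a motif of these pathways. They are the 250 bases before the annotated start, from RefSeq (GRCm38.p6), on the minus strand in all 4, with matches in capitals. The motifs searched on both strands were the E-box CACGTG, the E-prime box CACGTT, the D-box TTATGTAA, the nuclear receptor element AGGTCA and the cyclic AMP response element TGACGTCA, and no shown matches overlap.
Ciart, chr3:95882229-95882478, with 3 E-boxes: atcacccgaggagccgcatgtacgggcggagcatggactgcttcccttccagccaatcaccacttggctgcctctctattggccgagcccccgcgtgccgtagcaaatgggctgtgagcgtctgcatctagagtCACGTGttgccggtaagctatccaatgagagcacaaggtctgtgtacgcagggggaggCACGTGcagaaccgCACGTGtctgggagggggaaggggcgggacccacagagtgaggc
Bhlhe41, chr6:145865421-145865670, with 1 E-box: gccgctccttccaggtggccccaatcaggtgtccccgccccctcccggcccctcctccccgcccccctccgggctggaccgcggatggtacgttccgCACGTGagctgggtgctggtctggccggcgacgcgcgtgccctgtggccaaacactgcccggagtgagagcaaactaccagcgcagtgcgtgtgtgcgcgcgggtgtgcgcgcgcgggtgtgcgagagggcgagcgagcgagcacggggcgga
Per3, chr4:151044666-151044915, with 2 D-boxes: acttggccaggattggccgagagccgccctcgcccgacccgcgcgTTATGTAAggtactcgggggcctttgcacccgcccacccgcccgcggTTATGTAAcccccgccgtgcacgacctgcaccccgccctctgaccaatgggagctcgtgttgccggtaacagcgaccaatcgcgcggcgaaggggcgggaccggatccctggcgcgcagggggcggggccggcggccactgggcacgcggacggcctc
Dusp1, chr17:26508473-26508722, with 1 cyclic AMP response element and then 1 E-box: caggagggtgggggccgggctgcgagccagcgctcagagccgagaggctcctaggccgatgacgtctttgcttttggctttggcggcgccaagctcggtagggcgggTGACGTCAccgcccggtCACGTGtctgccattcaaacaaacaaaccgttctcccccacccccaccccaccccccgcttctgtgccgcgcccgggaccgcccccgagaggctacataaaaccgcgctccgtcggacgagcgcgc
Of 32851 promoters of that length, 6.02% held an E-box, 3.85% an E-prime box, 0.819% a D-box, 14.0% a nuclear receptor element and 1.55% a cyclic AMP response element. Of 21 measured clock genes 18 had a promoter in the table, and 5 of these (Bhlhe41, Ciart, Cry1, Per1 and Tef) held an E-box. So did 7 of 33 immediate early genes and 2 of 11 ERK feedback genes, the other lists searched. A cyclic AMP response element was held by 1 of 18 clock, 6 of 33 immediate early and 1 of 11 ERK feedback genes. Here a gene counts if any of its promoters held the match, whereas the shares above are of single promoters, so both cannot be compared directly. A match is a description of the letters and not of binding.

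Values are log2, each relative to the median of its probe set over the 12 arrays, so that 1 unit is a 2-fold difference and absolute levels cannot be compared between genes. Of 28853 probe sets, 21789 carried a single gene symbol, naming 19938 genes. At an adjusted p of 0.05 (limma over all 12 arrays, Benjamini-Hochberg over 28853 probe sets), 10 probe sets passed between the combination and ethanol, 0.0347% of those tested. Of these 7 were higher and 3 lower with the combination. The 9 with a single symbol (0.0413% of those with one) were 2 of Ciart, 3 of Rbm3 and 1 each of C4b, Lsm4, Mpp3 and Arntl, and the tenth, lower by 0.73, had no listed symbol. These counts changed when 1 array was left out, which also lowers the residual degrees of freedom: 0 passed without any 1 combination array, 0 without ethanol replicate 2 or 3, 5 without ethanol replicate 1 and 17 without saline replicate 1. Without another saline or mephedrone array, which leaves the differences as they were, 0 to 4 passed. The differences themselves stayed close without any 1 combination or ethanol array, at 0.78 to 0.96 for Ciart, 0.43 to 0.62 for Rbm3, 0.33 to 0.41 for C4b, 0.22 to 0.26 for Lsm4, -0.29 to -0.24 for Mpp3 and -0.60 to -0.54 for Arntl. At an unadjusted p under 0.05, 2939 probe sets (10.2%) differed, and of genes, each given 1 value as the mean of its probe sets, 5.31% were higher and 4.41% lower. These last shares are the background against which the gene groups below are read.

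Some arrays stood apart. Over all probe sets combination replicate 3 varied most, at an SD of 0.169, ethanol replicate 1 came next at 0.127, and the other 10 arrays lay between 0.068 and 0.102. Markers of the striatal projection neurons were in the upper of the 2 level bands that the deposited values show, with 17 of 17 measured members at a log2 level of 8 to 16 before centring, where 50.9% of all genes lay. Choroid plexus markers, from the tissue that secretes cerebrospinal fluid, averaged -0.040, 0.50 and 1.68 in the combination arrays and 0.68, -0.072 and -0.081 in the ethanol arrays. Combination replicate 3 was the highest of these, with ethanol replicate 1 and combination replicate 2 also raised. The second comparison held raised arrays too, saline replicate 2 at 0.93 and mephedrone replicate 1 at 0.48. How far such tissue differences took part in the results was not tested, and named differences at an unadjusted p under 0.05 or without overlap that moved over 1.5 times without combination replicate 3 are also given without it.

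Transcripts of the circadian clock differed between the combination and ethanol. Ciart, a repressor of BMAL1, rose, and Arntl fell. Among the repressors, Ciart had values of 0.56, 0.52 and 0.67 in the combination arrays and -0.39, -0.21 and -0.18 in the ethanol arrays on one probe set. On its other probe set they were 0.38, 0.47 and 0.23 with the combination and -0.62, -0.56 and -0.44 with ethanol. Every combination array lay above every ethanol array on both, by 0.84 on average (SE 0.085, 1.79-fold, adjusted p = 0.0206, limma) and 0.90 (SE 0.12, 1.86-fold, adjusted p = 0.0459, limma). Both probe sets may read near-identical copies and are not independent. Arntl, the activator, had -0.23, -0.23 and -0.33 in the combination arrays and 0.25, 0.32 and 0.34 in the ethanol arrays. All 3 combination arrays were below all 3 ethanol arrays, and Arntl fell by 0.57 on the log2 scale (SE 0.070, adjusted p = 0.0459, limma), or 1.48-fold higher in ethanol.

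The other clock genes are given with 1 value per gene and p adjusted over 19938 genes. Of the 21 measured clock genes, 9 were higher and 1 lower at an unadjusted p under 0.05, against 5.31% and 4.41% of all genes, and the list had a median of 0.054 against -0.0007 over all genes. Only Ciart and Arntl passed after adjustment in limma. Among the repressors, Bhlhe41 had 0.25, 0.23 and 0.14 in the combination arrays and -0.16, -0.30 and -0.11 in the ethanol arrays, a difference of 0.39 (SE 0.10, adjusted p = 0.263, limma) with no overlap. Its relative Bhlhe40 had 0.22, 0.13 and 0.52 with the combination and 0.10, -0.19 and -0.041 with ethanol, and differed by 0.33 (0.22 without combination replicate 3). Per3, a period gene, had 0.10, 0.061 and 0.080 with the combination and -0.25, -0.29 and -0.10 with ethanol. Its difference of 0.29 (SE 0.062, adjusted p = 0.184, limma) did not pass, though the arrays did not overlap.

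The other period genes and the cryptochromes did not show that separation. Per1 and Per2 differed by -0.11 (SE 0.11) and 0.013 (SE 0.13), and Cry1 and Cry2 by -0.094 (SE 0.075) and 0.025 (SE 0.052), each with overlapping arrays. Of the nuclear receptors that repress Arntl, Nr1d1 had 0.20, 0.13 and 0.22 in the combination arrays and -0.11, -0.079 and -0.021 in the ethanol arrays. Nr1d2 had 0.025, 0.092 and 0.20 with the combination and -0.025, -0.13 and -0.13 with ethanol. Both lay wholly higher with the combination, by 0.25 and 0.20, and did not pass after adjustment. Rora and Rorb, which activate Arntl, differed by -0.0054 and 0.087 with overlap. Of the PAR bZIP outputs, Dbp had 0.22, 0.15 and 0.093 with the combination and -0.36, -0.11 and -0.12 with ethanol, a difference of 0.35 (SE 0.063, adjusted p = 0.16, limma). Hlf and Tef both differed by 0.12, Tef with overlap and at 0.18 without combination replicate 3. Without ethanol replicate 1 Hlf was at 0.076 and Tef at 0.078. Nfil3, which competes for the same D-box, differed by -0.023. Clock, the partner of BMAL1, was at -0.068 (SE 0.033). The whole list averaged 0.071, 0.066 and 0.050 in the combination arrays and -0.051, -0.040 and -0.027 in the ethanol arrays. No array overlapped, and combination replicate 3 did not stand out in this mean. It did stand out in parts of the list. The 4 nuclear receptors averaged 0.038, 0.050 and 0.26 in the combination arrays, with a median difference of 0.14, and 0.044 without that array. The 3 kinases and ligases of the clock averaged -0.0095, 0.021 and -0.13 in the combination arrays.

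**Figure D1:**
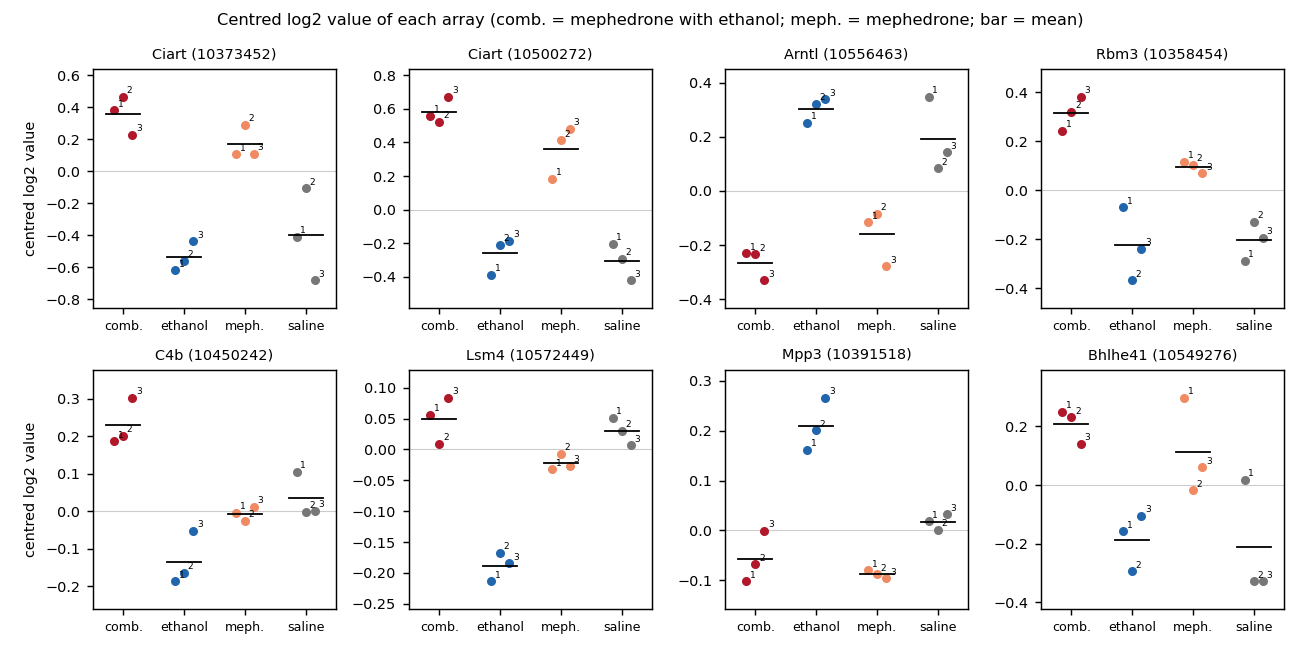
Centred log2 value (vertical axis) of each array for 8 probe sets, with the replicate number beside each point and a bar at the mean of each group of 3 arrays. The combination lies wholly above ethanol for Ciart, Rbm3, C4b, Lsm4 and Bhlhe41 and wholly below it for Arntl and Mpp3, and Bhlhe41 did not pass after adjustment. Mephedrone and saline are separated in the same direction for Ciart, Arntl, Rbm3 and Mpp3, at smaller distances, and in the opposite one for Lsm4.

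Rbm3, an RNA-binding protein induced by mild cooling, also rose. It had 3 probe sets with nearly the same values. One of them had 0.24, 0.32 and 0.38 in the combination arrays and -0.070, -0.37 and -0.24 in the ethanol arrays, without overlap. The 3 probe sets rose by 0.54, 0.51 and 0.50 (largest SE 0.070, largest adjusted p = 0.0459, limma). Cirbp, the other cold-inducible RNA-binding protein measured, had 0.25, 0.14 and 0.11 with the combination and -0.085, -0.30 and -0.25 with ethanol. Its arrays did not overlap either, but the difference of 0.38 (SE 0.077, adjusted p = 0.177, limma) did not pass.

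In 3 further genes that passed, the ethanol arrays lay apart from all other groups. C4b, a complement component, had 0.19, 0.20 and 0.30 in the combination arrays and -0.19, -0.16 and -0.052 in the ethanol arrays, while the mephedrone arrays had -0.0045, -0.026 and 0.012 and the saline arrays 0.11, -0.0020 and 0.0020. The combination arrays were above and the ethanol arrays below all 6 others, and the rise was 0.36 (SE 0.048, 1.29-fold, adjusted p = 0.0459, limma). Lsm4, a subunit of the LSm ring that binds U6 snRNA and decapping substrates, had 0.056, 0.0091 and 0.084 in the combination arrays and -0.21, -0.17 and -0.18 in the ethanol arrays. The mephedrone arrays, at -0.032, -0.0069 and -0.026, and the saline arrays, at 0.051, 0.030 and 0.0069, all lay above the ethanol arrays. The combination was higher than ethanol by 0.24 (SE 0.031, adjusted p = 0.0459, limma). Mpp3, a membrane scaffold of the guanylate kinase family, had -0.10, -0.068 and -0.00048 in the combination arrays and 0.16, 0.20 and 0.27 in the ethanol arrays. It fell by 0.27 on the log2 scale (SE 0.037, adjusted p = 0.0459, limma), and every other array was below the 3 ethanol arrays. With 1 value per gene and 19938 genes tested, Mpp3 missed the threshold (adjusted p = 0.0546, limma) and the other 5 genes (0.0251% of all) passed.

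Relatives of these 3 genes were mixed. Of 21 measured complement genes 3 were higher and 2 lower at an unadjusted p under 0.05, against 5.31% and 4.41% of all genes. The higher ones were C4b, Cd59a at 0.80, with overlapping arrays, and Clu at 0.11. The lower ones were the C1q genes C1qa and C1qc, at -0.14 and -0.16. Without combination replicate 3 Cd59a was at 0.55 and Clu at 0.068. Of 16 measured Sm and LSm genes 2 were higher, Lsm4 and Lsm3 (difference 0.19, SE 0.066). Of 12 membrane guanylate kinases 1 was higher (Mpp7, 0.35) and 2 lower (Mpp3, and Mpp2 at -0.21).

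Many immediate early genes had lower values with the combination than with ethanol, and none passed after adjustment. Of 45 measured members 20 were lower and 2 higher at an unadjusted p under 0.05 (limma), against 4.41% and 5.31% of all genes, and 19 lay wholly below and 1 wholly above ethanol, against 6.78% and 6.44% of all genes. The median was -0.10. Among the Egr and Nr4a transcription factors, Nr4a1 had -0.15, -0.11 and -0.66 in the combination arrays and 0.67, 0.88 and 1.00 in the ethanol arrays. The difference was -1.16 (SE 0.22, adjusted p = 0.16, limma), or 2.23-fold higher in ethanol. Egr2 had -0.0038, -0.0072 and -0.42 with the combination and 0.87, 0.95 and 0.95 with ethanol, a difference of -1.07 (SE 0.20, adjusted p = 0.16, limma). Neither overlapped. Egr1, Egr3, Egr4 and Nr4a3 differed by -0.47, -0.30, -0.51 and -0.60, all without overlap. Nr4a2, the seventh of this family, differed the other way, by 1.08 (SE 0.38), with 0.072, 0.38 and 1.63 in the combination arrays and 0.13, -1.01 and -0.27 in the ethanol arrays. Its groups overlapped, and combination replicate 3 was the highest array, without which the difference was 0.61.

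Of the 7 measured AP-1 genes, whose products dimerise on DNA, 5 were lower. Fos had -0.26, -0.086 and -0.069 in the combination arrays and 0.27, 0.36 and 0.21 in the ethanol arrays, and differed by -0.42 (SE 0.10, adjusted p = 0.252, limma). Fosl2, Fosb, Jund and Junb differed by -0.65, -0.34, -0.28 and -0.17, each without overlap. Among synaptic and secreted effectors, Arc, which controls AMPA receptor uptake, had -0.38, -0.27 and -0.11 with the combination and 0.37, 0.53 and 0.45 with ethanol. Vgf, a secreted neuropeptide precursor, had 0.031, -0.18 and -0.27 with the combination and 0.53, 0.30 and 0.46 with ethanol. The differences were -0.70 (SE 0.17) and -0.56 (SE 0.11), with adjusted p = 0.243 and 0.16 (limma). Plat, tissue plasminogen activator, was the member wholly above ethanol, by 0.20 (SE 0.055).

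Genes of ERK feedback gave a like picture, again with none past adjustment. Of 14 measured members 7 were lower and 0 higher at an unadjusted p under 0.05 (limma), against 4.41% and 5.31% of all genes. Below 0 lay 13 of 14 differences, against 10053 of 19938 over all genes, and the median was -0.15. Dusp6, a phosphatase that inactivates ERK, had -0.13, -0.00016 and -0.019 in the combination arrays and 0.32, 0.33 and 0.27 in the ethanol arrays. The difference of -0.35 (SE 0.057, adjusted p = 0.108, limma) did not pass. Dusp1, whose promoter with the cyclic AMP response element is shown above, had -0.19, -0.14 and -0.11 with the combination and 0.20, 0.52 and 0.33 with ethanol, and differed by -0.49 (SE 0.12). Dusp14, Spry4 and Spred3 differed by -0.37, -0.38 and -0.34, without overlap, and Dusp2, Dusp10 and Spry1 by -0.016, 0.035 and -0.025, with overlap. Dusp14 was at -0.24 without combination replicate 3.

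Which arrays were high can be read from the list means. Immediate early genes averaged -0.043, -0.050 and -0.021 in the combination arrays, 0.17, 0.079 and 0.12 in the ethanol arrays, -0.056, 0.016 and 0.024 in the mephedrone arrays and 0.12, -0.056 and -0.0076 in the saline arrays. ERK feedback genes averaged -0.023, -0.043 and -0.10 in the combination arrays, against 0.15, 0.12 and 0.15 in the ethanol arrays. In the mephedrone arrays they averaged -0.044, 0.010 and 0.011, against 0.11, -0.093 and -0.042 in the saline arrays. The 3 ethanol arrays and saline replicate 1 were thus high, and the combination arrays were near the mephedrone arrays and the other saline arrays or below them. Saline replicate 1 enters the comparison only through the shared spread. Without it the differences were as before by construction, and 17 probe sets passed after adjustment, 8 of the 10 above and 9 others. Mpp3 and 1 probe set of Ciart then missed the threshold (adjusted p = 0.0573 and 0.0529, limma). The 9 others were all lower: Egr1, Egr2, Nr4a1, Fosl2, Vgf, Dusp6 and Bcl2, with Midn and Pdp1, the last pair named after their values were seen. Their adjusted p then lay between 0.0106 and 0.0466 (limma), with Egr1 the lowest. Egr1 was at 0.50 in saline replicate 1 and at -0.048 and 0.024 in the other saline arrays. Leaving out an array that is high for these lists narrows the spread of their genes. That such genes passed without it is therefore no further support. The median of immediate early genes was -0.12 without combination replicate 3 and -0.050 without ethanol replicate 1. That of ERK feedback genes was -0.11 and -0.15.

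**Figure D2:**
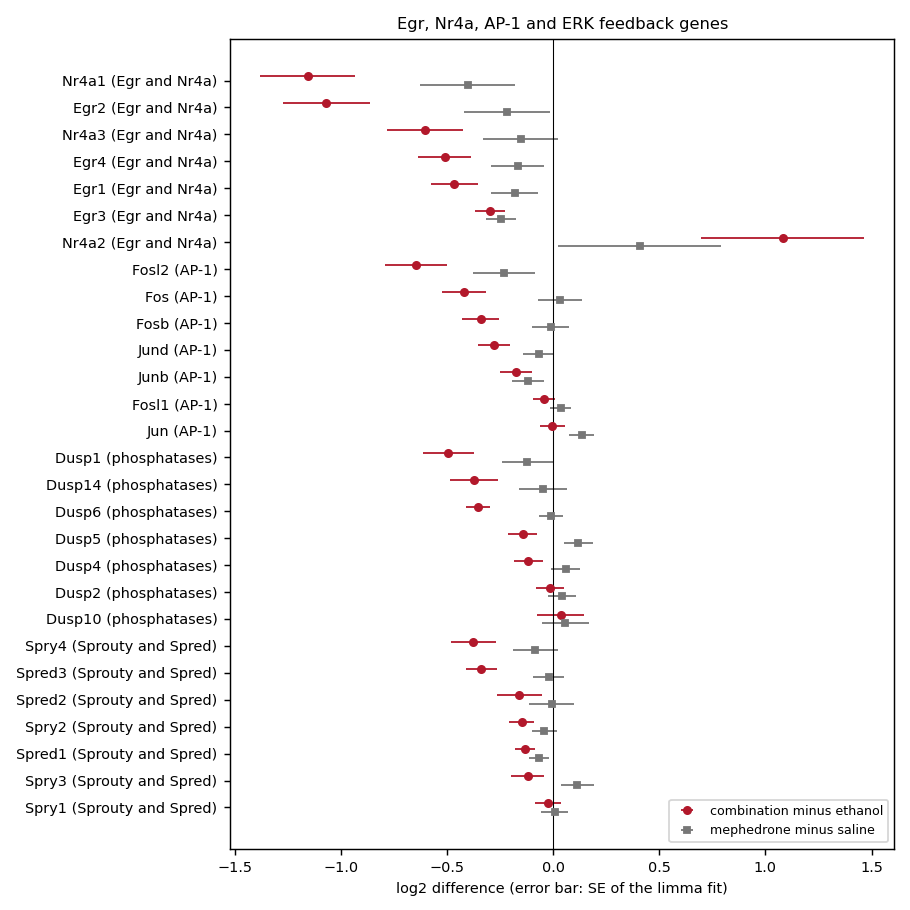
Log2 difference (horizontal axis) of Egr, Nr4a, AP-1 and ERK feedback genes, 1 value per gene, with the standard error of the limma fit as bars; circles show the combination minus ethanol, and squares mephedrone minus saline. Circles reach -1.16 for Nr4a1 and lie below 0 for most genes, with Nr4a2 at 1.08 on the other side. Squares lie nearer to 0, at -0.40 for Nr4a1 and 0.032 for Fos.

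Markers of brain endothelium mostly had lower values with the combination. Of 22 measured markers 10 were lower and 0 higher at an unadjusted p under 0.05 (limma), against 4.41% and 5.31% of all genes. Wholly below ethanol lay 9, against 6.78% of all genes. The median was -0.072, with 18 differences below 0 and 4 above. None passed after adjustment. Cldn5, a tight junction protein of the blood-brain barrier, had -0.21, -0.35 and -0.30 in the combination arrays and 0.18, 0.050 and 0.14 in the ethanol arrays. The difference was -0.41 (SE 0.062, adjusted p = 0.0814, limma), without overlap. Tek, the angiopoietin receptor, had -0.13, -0.14 and -0.14 with the combination and 0.16, 0.019 and 0.077 with ethanol, and differed by -0.22 (SE 0.036, adjusted p = 0.108, limma). Emcn, Flt1 and Pecam1 differed by -0.31, -0.19 and -0.19, each without overlap. The 4 markers above 0 were Slco1a4 at 0.22, Abcg2 at 0.19, Pltp at 0.10 and Slc2a1 at 0.043, all with overlap. In such bulk samples fewer cells of a type and less RNA per cell cannot be told apart. The list averaged -0.022, -0.058 and -0.0012 in the combination arrays and 0.14, -0.015 and 0.061 in the ethanol arrays, and ethanol replicate 1 was the highest. The median was -0.070 without that array, -0.12 without ethanol replicate 2 and -0.090 without combination replicate 3. Of 11 measured mural cell markers, which line the same vessels, 1 was lower and 0 higher, with a median of 0.0043.

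**Figure D3:**
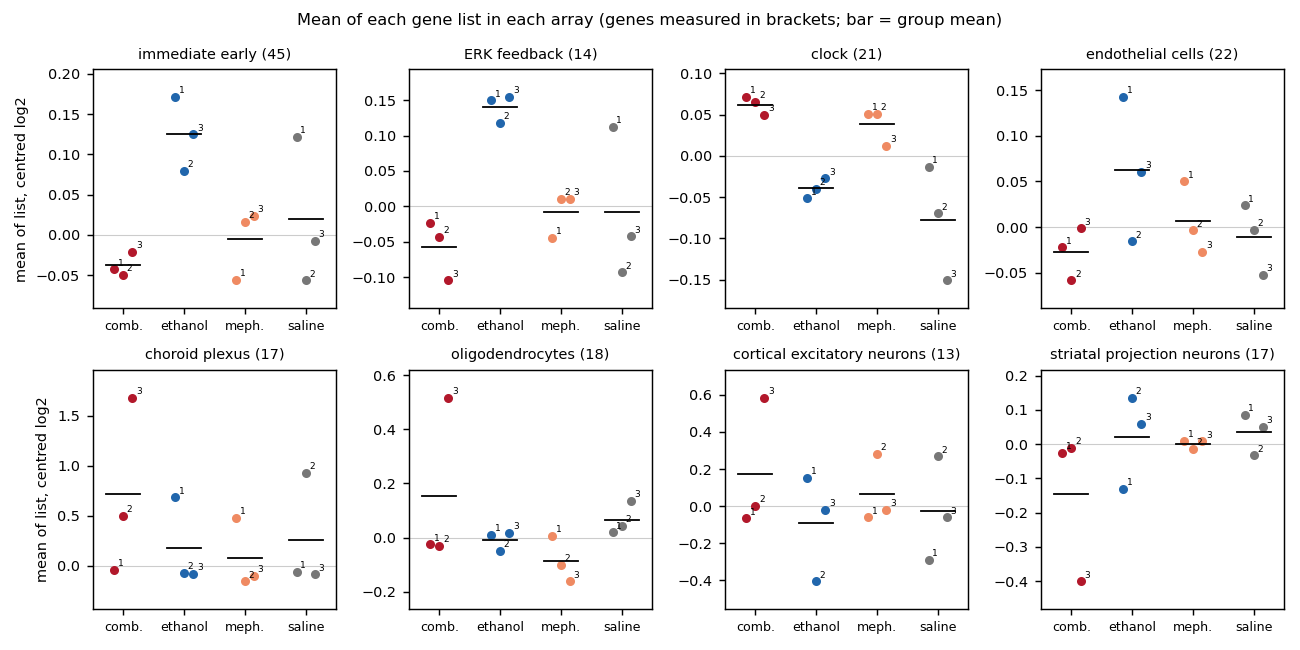
Mean centred log2 value (vertical axis) of the measured genes of 8 lists in each array, with the replicate number beside each point and a bar at the group mean. Immediate early and ERK feedback genes are high in the 3 ethanol arrays and saline replicate 1. Clock genes separate the combination and mephedrone arrays from those of ethanol and saline, and choroid plexus, oligodendrocyte and cortical markers are highest in combination replicate 3.

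Of 18 measured microglial markers 4 were lower and 2 higher at an unadjusted p under 0.05 (limma), against 4.41% and 5.31% of all genes. Their median was -0.074. In all, 15 differences were below 0 and 3 above. Tyrobp, a signalling adaptor, and C1qa differed by -0.26 and -0.14. Fcrls, also a microglial gene, differed the other way, by 0.45, without overlap, and did not pass after adjustment. Among thyroid hormone genes, Trhr2, a receptor for thyrotropin-releasing hormone, had 0.18, 0.12 and 0.23 in the combination arrays and -0.20, -0.21 and -0.19 in the ethanol arrays. Dio2, which makes the active hormone, had -0.17, -0.033 and -0.24 with the combination and 0.16, 0.35 and 0.19 with ethanol. Neither gene overlapped, and neither difference passed, at 0.37 for Trhr2 and -0.38 for Dio2 (adjusted p = 0.108 for both, limma). The receptor gene Thrb differed by -0.33 and Thra by 0.090, and of 11 measured members 2 were higher and 2 lower.

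Of genes for heat shock and unfolded protein responses 6 of 29 were lower and 1 higher at an unadjusted p under 0.05, against 4.41% and 5.31% of all genes. Hspb1, a small chaperone, had -0.12, -0.18 and -0.034 with the combination and 0.44, 0.30 and 0.12 with ethanol, a difference of -0.40 (SE 0.089, adjusted p = 0.211, limma). The endoplasmic reticulum genes Xbp1, Hspa5 and Creld2 differed by -0.27, -0.31 and -0.21, all without overlap. For Xbp1 and Hspa5 the 3 ethanol arrays and saline replicate 1 were the high ones, as for immediate early genes.

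Several mitochondrial cofactor genes had higher values with the combination. Of 22 measured genes for iron-sulphur clusters and ubiquinone 7 were higher and 1 lower, against 5.31% and 4.41% of all genes. The list as a whole moved little, with a median of 0.028, 13 differences above 0 and 9 below. Sdhaf4, an assembly factor of succinate dehydrogenase, had 0.13, 0.11 and 0.14 in the combination arrays and -0.074, -0.088 and -0.11 in the ethanol arrays, without overlap. It differed by 0.21 (SE 0.043, adjusted p = 0.171, limma), Coq3, a ubiquinone methyltransferase, by 0.21, and Coq4, of the same pathway, by -0.15. Of 81 respiratory chain genes 8 were higher and 3 lower, against the same 5.31% and 4.41%, with a median of 0.023. Ndufs1, the largest subunit of complex I, had 0.22, 0.21 and 0.23 with the combination and -0.0027, -0.090 and 0.024 with ethanol, and differed by 0.24 (SE 0.045, adjusted p = 0.16, limma). Of 26 sterol and fatty acid genes 5 were higher and 0 lower, among them Fdft1 at 0.22 and Lss at 0.23, both enzymes of cholesterol synthesis, with Fdft1 at 0.14 without combination replicate 3. The median of that list was 0.099, 0.018 without that array and 0.050 without ethanol replicate 2.

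Glutamate and monoamine genes gave few differences. Of 13 AMPA receptor genes 3 were lower and 0 higher at an unadjusted p under 0.05, against 4.41% and 5.31% of all genes. All 3 encode auxiliary subunits that carry the receptor to the synapse. Cacng2 had -0.12, -0.10 and -0.020 in the combination arrays and 0.14, 0.15 and 0.19 in the ethanol arrays, a difference of -0.24 (SE 0.057, adjusted p = 0.234, limma), without overlap. Cacng3 and Cacng4 differed by -0.35 and -0.34, with combination replicate 3 the lowest array of both and Cacng4 at -0.20 without it. Of 14 genes of monoamine handling only Maoa, which oxidises serotonin and noradrenaline, was past an unadjusted 0.05, at 0.21 (SE 0.058). The transporters that mephedrone acts on did not pass, with 0.016 for the dopamine transporter Slc6a3 (95% interval -0.13 to 0.16) and -0.024 for the serotonin transporter Slc6a4 (95% interval -0.12 to 0.075). Both are made mainly by cells outside the striatum. Of 14 serotonin receptors Htr6 and Htr1b were lower, at -0.19 and -0.23, with Htr1b at -0.12 without combination replicate 3, and of 8 opioid genes none differed at an unadjusted 0.05.

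Of the 5 dopamine receptors none passed (limma), nor at an unadjusted 0.05. Drd3, the receptor named in the series title, had -0.00062, 0.00062 and -1.05 in the combination arrays and 0.34, 0.092 and 0.14 in the ethanol arrays. The groups did not overlap, but combination replicate 3 lay far below its partners, and the difference was -0.54 (95% interval -1.09 to 0.013). Drd2 had -0.031, -0.013 and -0.42 with the combination and -0.20, 0.17 and 0.091 with ethanol, and differed by -0.18 (95% interval -0.41 to 0.060). Drd1 had 0.0062, 0.053 and -0.43 with the combination and -0.19, 0.14 and 0.062 with ethanol, and differed by -0.13 (95% interval -0.37 to 0.12). Drd4 was at 0.013 and Drd5 at -0.093. Combination replicate 3 was the lowest of the 6 arrays for Drd1, Drd2 and Drd3, which without it differed by 0.026, -0.042 and -0.19. The median of the 5 was -0.13, -0.040 without that array and -0.22 without ethanol replicate 1.

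The cell type lists show how far that array reached. The 17 choroid plexus markers had a median of 0.45, with all 17 above 0, and 0.023 without combination replicate 3. None was past an unadjusted 0.05. The 18 oligodendrocyte markers, of the myelin-forming cells, had a median of 0.17, and -0.013 without it. The 13 markers of cortical excitatory neurons had 0.15, and 0.038 without it. The 17 markers of striatal projection neurons had -0.13, and -0.018 without it. At an unadjusted p under 0.05, 3 were lower, all with overlapping arrays, against 4.41% of all genes. Of these, Sh3rf2 differed by -0.29 and Actn2 by -0.23. Ptpn5, a striatal phosphatase and the 1 of 17 cyclic AMP signalling genes past an unadjusted 0.05, differed by -0.26, with overlap. Without combination replicate 3 Sh3rf2, Actn2 and Ptpn5 were at -0.18, -0.14 and -0.094. Leaving out another array gave 0.34 to 0.76 for choroid plexus, 0.13 to 0.25 for oligodendrocyte, 0.093 to 0.25 for cortical and -0.22 to -0.089 for striatal markers. The medians of clock and endothelial genes, at 0.067 and -0.090 without combination replicate 3, did not shrink in this way.

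**Figure D4:**
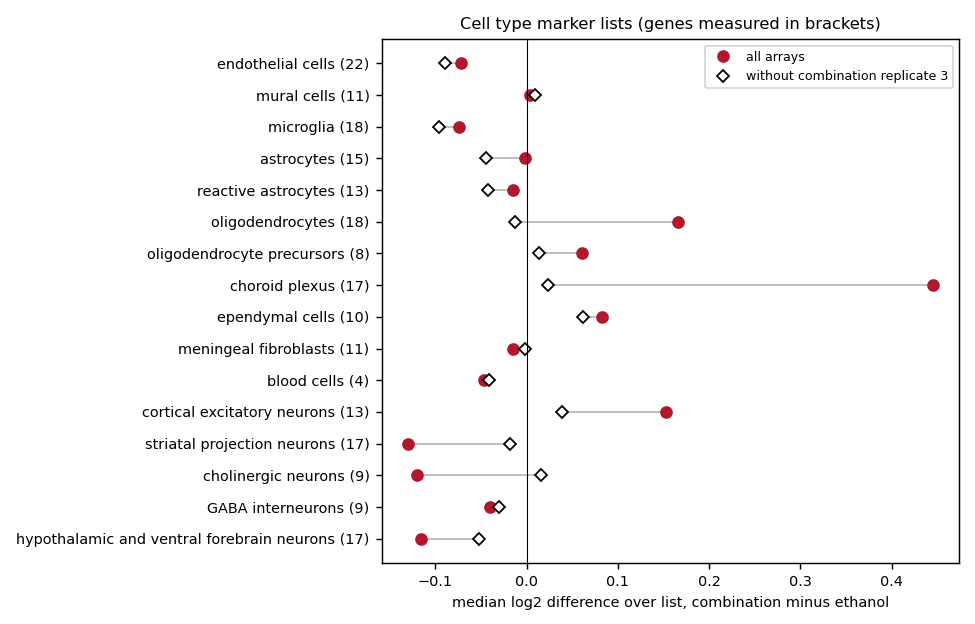
Median log2 difference of each list of cell type markers, combination minus ethanol (horizontal axis), in all arrays (filled) and without combination replicate 3 (open), with the number of measured genes in brackets. Choroid plexus markers are at 0.023 without that array and 0.45 in all arrays, and oligodendrocyte, cortical and striatal markers also move close to 0. The medians of endothelial and microglial markers stay below 0.

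Among genes not yet named, leaving aside small RNAs, olfactory and vomeronasal receptors and unnamed transcripts, the largest single-symbol differences without overlap and at an unadjusted p under 0.01 were mixed, and none passed after adjustment (limma). On the higher side were Rasl11b, a small GTPase, at 0.64 (SE 0.18), Pilra, a myeloid receptor, at 0.60, Eapp at 0.48 and Igfbp5, which binds insulin-like growth factors, at 0.46. Rasl11b had 0.0033, 0.16 and 0.78 with the combination and -0.38, -0.27 and -0.32 with ethanol, and its highest array was combination replicate 3, without which it was at 0.40 and Igfbp5 at 0.28. On the lower side were Nt5dc3 at -0.74 (SE 0.24), Pld5 at -0.68, Ntng1, a netrin relative that guides axons, at -0.51, Oscar, an immune receptor, at -0.48 and Bcl2, which blocks cell death, at -0.47. Nt5dc3 was at -0.46 without combination replicate 1, and Ntng1 at -0.31 without ethanol replicate 1. Pld5 had -0.37, -0.36 and -0.38 with the combination and 0.33, 0.54 and 0.073 with ethanol, so that its combination arrays lay close together and its ethanol arrays did not. Among the small RNAs, Snord53, a small nucleolar RNA named after its values were seen, had the largest difference of any single-symbol probe set in the comparison, at -2.17 (SE 0.50, adjusted p = 0.222, limma). It had -0.77, -0.58 and -0.72 with the combination and 1.62, 1.00 and 1.81 with ethanol. At an unadjusted p under 0.05 and a change of at least 1.5-fold, 9 single-symbol probe sets were higher and 23 lower, 0.0413% and 0.106% of those tested. Of the 23, 10 were probe sets of Srsy, a multi-copy gene, all with overlapping arrays, and with 1 value per gene 9 genes were higher and 11 lower. Without combination replicate 3 the counts of probe sets were 6 and 10, and without ethanol replicate 1 they were 23 and 16.

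Mephedrone against saline asked whether adding mephedrone gave like differences without ethanol, in 6 other arrays. No probe set passed there after adjustment (limma), and 2154 (7.47%) did at an unadjusted 0.05. Of the 1939 genes past an unadjusted 0.05 between the combination and ethanol, 77.6% differed in the same direction between mephedrone and saline, against 59.6% of all 19938 genes. Genes are not independent replicates, and the arrays were normalised together. Of the genes higher with the combination 84.3% were above 0 between mephedrone and saline, against 56.0% of all genes, and of those lower 69.5% were below 0, against 44.0%.

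Ciart, Arntl, Per3 and Dbp were on the same side in both. Ciart had 0.15, 0.35 and 0.30 in the mephedrone arrays and -0.31, -0.20 and -0.55 in the saline arrays with 1 value per gene, a difference of 0.62 (SE 0.084), against 0.87 between the combination and ethanol. Arntl differed by -0.35, against -0.57, Per3 by 0.34, against 0.29, and Dbp by 0.26, against 0.35. Of the 21 clock genes 7 were higher and 1 lower between mephedrone and saline, where 5.72% and 1.51% of all genes were. Rbm3 differed by 0.28 and Cirbp by 0.15, and 7 of 22 cofactor genes were higher. Immediate early genes had 2 higher and 1 lower of 45, and ERK feedback genes 0 of 14. For these lists saline replicate 1 was high and the other saline arrays were not.

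**Figure D5:**
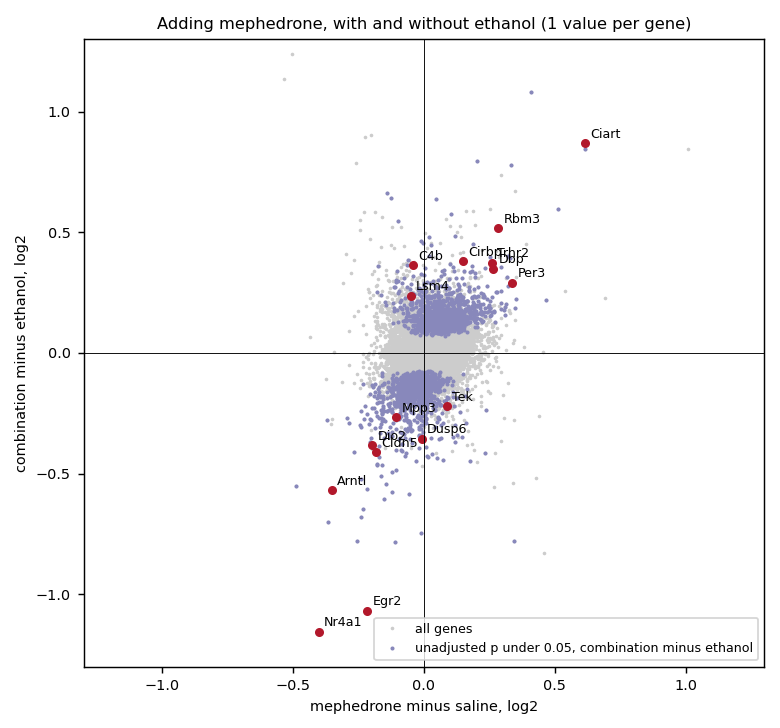
Log2 difference of each gene between mephedrone and saline (horizontal axis) and between the combination and ethanol (vertical axis), 1 value per gene; darker points were at an unadjusted p under 0.05 on the vertical axis, and named genes are in red. Ciart and Arntl lie far out on the diagonal, while Dusp6, C4b and Lsm4 lie close to the vertical axis. The axes end at 1.3, which leaves 1 gene out.

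The difference between both comparisons was tested as an interaction, the combination minus ethanol less mephedrone minus saline. None of 28853 probe sets passed after adjustment (limma), and 991 (3.43%) were at an unadjusted 0.05. The 5 named genes with the smallest p were Lsm4 at 0.29 (SE 0.044), Tek at -0.31 (SE 0.050), C4b at 0.41 (SE 0.067), Ocel1 at -0.62 (SE 0.13) and Pfdn2, a subunit of the prefoldin chaperone, at -0.23 (SE 0.050). Their adjusted p ran from 0.786 for Lsm4 to 1.00 for Pfdn2. Ciart was at 0.26 (SE 0.12) and Arntl at -0.22 (SE 0.10), in the direction of a wider gap with ethanol, and neither passed. At an unadjusted 0.05 the interaction was below 0 for 7 of 22 endothelial genes, 6 of 45 immediate early genes and 4 of 14 ERK feedback genes, against 2.4% of all genes. It was above 0 for 6 of 18 oligodendrocyte genes, against 1.14% of all genes. The median of that list between the combination and ethanol was 0.17, and -0.013 without combination replicate 3. Between mephedrone and saline its median was -0.17, with all 18 genes below 0. Dusp6 was at -0.35 (SE 0.080), Egr2 at -0.85 (SE 0.29) and Cldn5 at -0.23 (SE 0.088).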

How the data were processed

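Per the labels, cDNA made and amplified from total RNA was fragmented and biotinylated for 12 arrays with Affymetrix whole-transcript reagents. The submitters' processing notes name RMA and the genome build mm8, and GeneSpring GX 7.3.1 is named in the design text. The deposited table holds log2 values, a scale read from the values themselves, and each probe set is centred on its median over 12 arrays (largest remaining median 7.02e-07). The step of the values shows whether a probe set lay at 4 to 8 or 8 to 16 before centring, and testing the 13485 of the upper band alone was added as an alternative after the data were seen. The number of arrays limits the precision. Symbols came from the platform annotation: 21789 probe sets had 1, 1621 several and 5443 none listed.

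The values were used as deposited. Means of the 4 groups were fitted with limma 3.58.1 in R 4.3.3 (lmFit, eBayes; 8 residual and 3.11 prior degrees of freedom; two-sided moderated tests), with Benjamini-Hochberg adjustment over 28853 probe sets or, with 1 value per gene, 19938 genes. Errors beside differences are standard errors. The script was tested on simulated data. Figures were drawn with matplotlib 3.10.9.

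The genes named are those past an adjusted 0.05, the 15 highest and 15 lowest differences without overlap at an unadjusted p under 0.01, up to 4 members per gene list by smallest p, all dopamine receptors, Slc6a3 and Slc6a4, and the 5 smallest interaction p. Olfactory and vomeronasal receptors, small RNAs and unnamed transcripts were not named. Further members of a list are given to complete a family, chosen after their values were seen. The members and lists were chosen with earlier results of these data known. Replicate numbers are shared by the groups, but deviations of same-numbered combination and ethanol arrays correlated at -0.218, 0.174 and -0.159, so the numbers were not taken as pairs.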

Additional observations from a re-analysis of the deposited data

Results flagged for a closer look

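In 4 of the genes reported, the arrays did not overlap in either comparison and ran in opposite directions, so that the combination moved one way against ethanol and mephedrone the other way against saline. Over all genes 60 of 19938 (0.301%) did so, against 498 (2.5%) that lacked overlap in the same direction in both. Lsm4 was at 0.24 between the combination and ethanol and -0.051 between mephedrone and saline, with an interaction of 0.29 (adjusted p = 0.786, limma). Tek was at -0.22 and 0.087, with an interaction of -0.31 (adjusted p = 0.786, limma). Pfdn2 was at -0.087 and 0.15, with an interaction of -0.23, and its first difference was -0.053 without combination replicate 1. Zic4, a transcription factor on the list of cholinergic neuron markers, was at -0.12 and 0.073 with 1 value per gene, with an interaction of -0.19. The last pair had adjusted p of 1.00 (limma). Dixon's test of a single outlying array was not run on these groups of 3 arrays.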

How the results depend on the processing

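Between the combination and ethanol 10 probe sets passed, and the count depended on the setting. It was 0 after quantile normalisation, 0 with the replicate block, 0 with the 6 compared arrays alone, 5 with 1 value per symbol, and 4 without combination replicate 3 and ethanol replicate 1 together. It was 64 by an unadjusted p under 0.05 with a 1.5-fold change. Array quality weights gave 13 and robust eBayes 10, both with all 10 of the original, and testing single-symbol probe sets alone gave 9. Testing the upper level band alone, an alternative chosen after seeing the data, gave 9, all among the 10, while C4b lies in the lower band. Leaving out 1 array gave 0 to 17. The interaction count was 0 under every alternative run, except for 12 by the unadjusted rule with a 1.5-fold change. Between mephedrone and saline, where 0 passed, quantile normalisation gave 3, weights 8, single-symbol probe sets alone 4, the upper level band alone 2, the 6 arrays of that comparison 1, the unadjusted rule 11, leaving out combination replicate 3 and ethanol replicate 1 together 14, and leaving out 1 array 0 to 9. The causes were not tested. Of the differences of named probe sets under the alternatives, 531 stayed on the same side of the threshold, 123 were no longer past it, 6 newly passed and 0 changed sign. Most of the 531 were of probe sets that had not passed to begin with. All 123 were of the 9 single-symbol probe sets that had passed, each of which missed the threshold in most alternatives. Those of Ciart passed in 5 and 9 of 19 alternatives, each of Rbm3 in 6, Arntl in 5, Lsm4 in 4 and Mpp3 in 3. C4b passed in 3 of 18. Of the medians of gene lists, 292 moved by less than the spread between replicates and 23 by more. The labels do not say whether arrays of the same replicate number share a batch. Correlations between combination and ethanol arrays cannot settle it, because arrays of different numbers also correlated, combination replicate 3 with ethanol replicate 1 at 0.33. A loss under the block says nothing about the size of a difference. The depth of an array is not given by a centred table, which has no signal over background.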
